A study of Mus musculus with 24 samples.

Results

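The genes described here were 10 markers of bile duct cells and of ductular progenitor cells: Krt7, Krt19, Krt23, Epcam, Sox9, Prom1, Spp1, Cftr, Muc1 and Cldn4. They were taken by exact gene symbol among 21144 genes measured on Affymetrix arrays of mouse liver, and each was read by 1 probe set. There were 24 arrays, 1 per mouse, in 8 groups of 3. Wild-type mice (N-RAS+/+) and mice lacking the small GTPase N-RAS in the whole body (N-RAS-/-), both described as C57BL/6J males aged 8 to 10 weeks at the start and assigned at random, entered 1 of 2 injury models. In the first, the bile duct was ligated (BDL) or the mice had a sham operation, and livers were taken on day 28. In the second, carbon tetrachloride (CCl4), a hepatocyte toxin, or its vehicle, corn oil, was given 2 times a week for 4 weeks. The mice are named N01 to N03 (N-RAS+/+ sham), N04 to N06 (N-RAS+/+ BDL), N07 to N09 (N-RAS-/- sham), N10 to N12 (N-RAS-/- BDL), N21 to N23 (N-RAS+/+ oil), N24 to N26 (N-RAS+/+ CCl4), N27 to N29 (N-RAS-/- oil) and N30 to N32 (N-RAS-/- CCl4). All values are log2 signals as deposited, so a difference of 1 is a doubling. Signals of different genes are not on a common scale, so each gene was compared between livers only, and levels of marker lists are printed as a check of the tissue.

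Bile is carried out of the liver by ducts lined with cholangiocytes, a simple epithelium held together by tight junctions, built on keratin filaments and equipped with channels that add fluid and bicarbonate to bile. When bile cannot drain, or when hepatocytes die over long periods, small ductules expand from the portal tracts, a process called the ductular reaction, and some of the cells in it carry both duct and progenitor markers. Obstruction acts on the ducts themselves, whereas CCl4 is activated by cytochrome P450 enzymes of hepatocytes around the central vein, away from the ducts. In whole liver the ducts are a small share of the cells, and more cells of a type cannot be told apart from more RNA per cell.

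The targeted gene followed the genotype labels: the 12 N-RAS+/+ livers had Nras signals from 5.92 to 8.04, all above those of the 12 N-RAS-/- livers (4.55 to 5.55). The sex given in the labels did not hold for every array. The mean of 4 Y-linked genes was 3.0 to 3.59 on 6 arrays and 6.84 to 8.25 on the other 18. The 6 were N01 and N03 of N-RAS+/+ sham, all 3 of N-RAS-/- sham, and N28 of N-RAS-/- oil, so every N-RAS-/- sham liver was on this side and no ligated or CCl4 liver was. Among the 12 control livers Prom1 differed between these sets without overlap, at 4.62 to 6.47 on the low arrays and 3.12 to 4.06 on the others, and the medians of Sox9 were 6.88 and 7.81. N28, the 1 low oil liver, had the highest Sox9 of the 12 (8.39). The low control livers were mostly sham and mostly N-RAS-/-, and the others mostly oil and mostly N-RAS+/+. Y-linked signal could therefore not be told apart from experiment and genotype here. Results on the low arrays are given also without them where a control array was left. Over all arrays 7 hepatocyte markers read 9.90 to 13.52, 9 markers of pancreatic acini 2.72 to 6.21, 5 of intestinal epithelium 3.0 to 5.56 and 5 of squamous epithelium 2.91 to 5.87. Fabp2, the remaining gene of the intestinal list, had group means of 6.79 to 9.33. Liver N12 carried skeletal muscle transcripts, with Acta1 at 10.88 against at most 5.10 elsewhere. The marker calls for ligated N-RAS-/- livers are given also without it.

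Promoters are shown for 5 members: Krt7, Epcam, Muc1 and Cldn4, which moved together from liver to liver after ligation, and Prom1, which did not move with them. The RefSeq windows (GRCm38.p6) run from 250 bases before to 50 bases after the transcription start, and 8 of the 10 members had an entry. In the windows below, written 5′ to 3′ on the gene's own strand, capitals mark matches on either strand to the GC box bound by SP factors (GGGCGG), the AP-1 site (TGANTCA), the TATA box (TATAAA), the TEAD site (CATTCC), a SOX site (AACAAT) and an RBPJ site (GTGGGAA). Krt7 lies at chr15:101412153-101412452 on the plus strand, Epcam at chr17:87635729-87636028 on the plus strand, Muc1 at chr3:89228806-89229105 on the plus strand, Cldn4 at chr5:134946885-134947184 on the minus strand and Prom1 at chr5:44101687-44101986 on the minus strand.
Krt7: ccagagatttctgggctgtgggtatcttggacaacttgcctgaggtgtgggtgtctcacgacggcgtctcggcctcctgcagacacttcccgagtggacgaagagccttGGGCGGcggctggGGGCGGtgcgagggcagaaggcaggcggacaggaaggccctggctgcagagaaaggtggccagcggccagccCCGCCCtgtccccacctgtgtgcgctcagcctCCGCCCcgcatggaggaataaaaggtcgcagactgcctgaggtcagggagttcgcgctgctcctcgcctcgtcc
Epcam: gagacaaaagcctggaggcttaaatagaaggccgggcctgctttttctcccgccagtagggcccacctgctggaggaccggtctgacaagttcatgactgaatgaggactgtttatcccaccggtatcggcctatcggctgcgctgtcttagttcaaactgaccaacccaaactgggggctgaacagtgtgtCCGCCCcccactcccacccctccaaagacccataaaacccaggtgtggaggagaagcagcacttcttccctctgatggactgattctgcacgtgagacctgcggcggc
Muc1: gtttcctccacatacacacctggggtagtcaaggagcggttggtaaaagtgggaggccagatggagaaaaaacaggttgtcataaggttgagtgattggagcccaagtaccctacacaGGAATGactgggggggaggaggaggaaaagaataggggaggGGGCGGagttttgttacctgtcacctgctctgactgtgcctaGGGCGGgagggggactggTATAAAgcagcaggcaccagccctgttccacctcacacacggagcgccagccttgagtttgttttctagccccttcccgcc
Cldn4: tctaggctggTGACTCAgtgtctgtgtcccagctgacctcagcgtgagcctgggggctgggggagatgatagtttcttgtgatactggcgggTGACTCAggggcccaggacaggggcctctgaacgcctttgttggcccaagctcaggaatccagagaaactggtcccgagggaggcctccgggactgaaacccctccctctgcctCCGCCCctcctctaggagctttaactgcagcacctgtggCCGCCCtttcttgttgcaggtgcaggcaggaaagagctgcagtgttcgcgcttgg
Prom1: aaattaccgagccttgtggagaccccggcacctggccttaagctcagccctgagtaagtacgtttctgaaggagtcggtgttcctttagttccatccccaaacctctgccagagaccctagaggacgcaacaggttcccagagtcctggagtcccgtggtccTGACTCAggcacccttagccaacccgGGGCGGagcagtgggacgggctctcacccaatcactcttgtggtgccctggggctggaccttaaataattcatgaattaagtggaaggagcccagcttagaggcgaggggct
The Krt7 window held 4 GC boxes and Epcam 1. Muc1 held a TATA box beginning 31 bases before the start (position -31), 2 GC boxes and a TEAD match at -132. Cldn4 held 2 GC boxes and 2 AP-1 matches, at -240 and -158, and Prom1 had 1 of each. The 8 genes had 10 windows, since Prom1 and Spp1 had more than 1, and a gene was counted if any of its windows matched. By this count the GC box was present in 6 genes, where 35.7% of 32851 single promoter windows held one. AP-1 was present in 2 genes, and 7.81% of single windows held it. No SOX or RBPJ match lay in any member's window, and 10.7% and 6.38% of all windows held one. These are letter matches and say nothing of binding.

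After ligation of the bile duct in N-RAS+/+ mice, 8 of the 10 markers were higher than after the sham operation by limma at an adjusted p below 0.05, where 4.51% of all genes were higher. In N-RAS-/- mice 6 of 10 were higher, against 7.18% of all genes. With the mean Y-linked signal of each array as a covariate, 2 markers, Prom1 and Spp1, were called in each genotype. Krt7, Krt19 and Cldn4 in N-RAS-/- were then at 1.94, 2.16 and 1.82, with adjusted p-values of 0.306, 0.17 and 0.354. Within a group this signal differed widely only among N-RAS+/+ sham livers (3.59, 7.87 and 3.19), so its slope rested mainly on N02. In N-RAS-/- every sham liver was low and every ligated liver was high, so the covariate could not be separated from ligation there. Without the covariate, no marker was called lower in either genotype, against 2.7% and 4.05% of all genes. In each genotype 9 of the 10 had all 3 ligated livers above all 3 sham livers, a separation in this direction that 12% (N-RAS+/+) and 15.6% (N-RAS-/-) of all genes showed. The median difference of the 10 was 1.77 in N-RAS+/+ and 1.83 in N-RAS-/-, with all genes at -0.01 and -0.03. Markers of other cells moved in the same comparison: 6 of 9 macrophage genes and 4 of 8 stellate cell or fibroblast genes were higher in N-RAS+/+ (7 of 9 and 5 of 8 in N-RAS-/-), and their part in the values below was not tested.

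**Figure D1:**
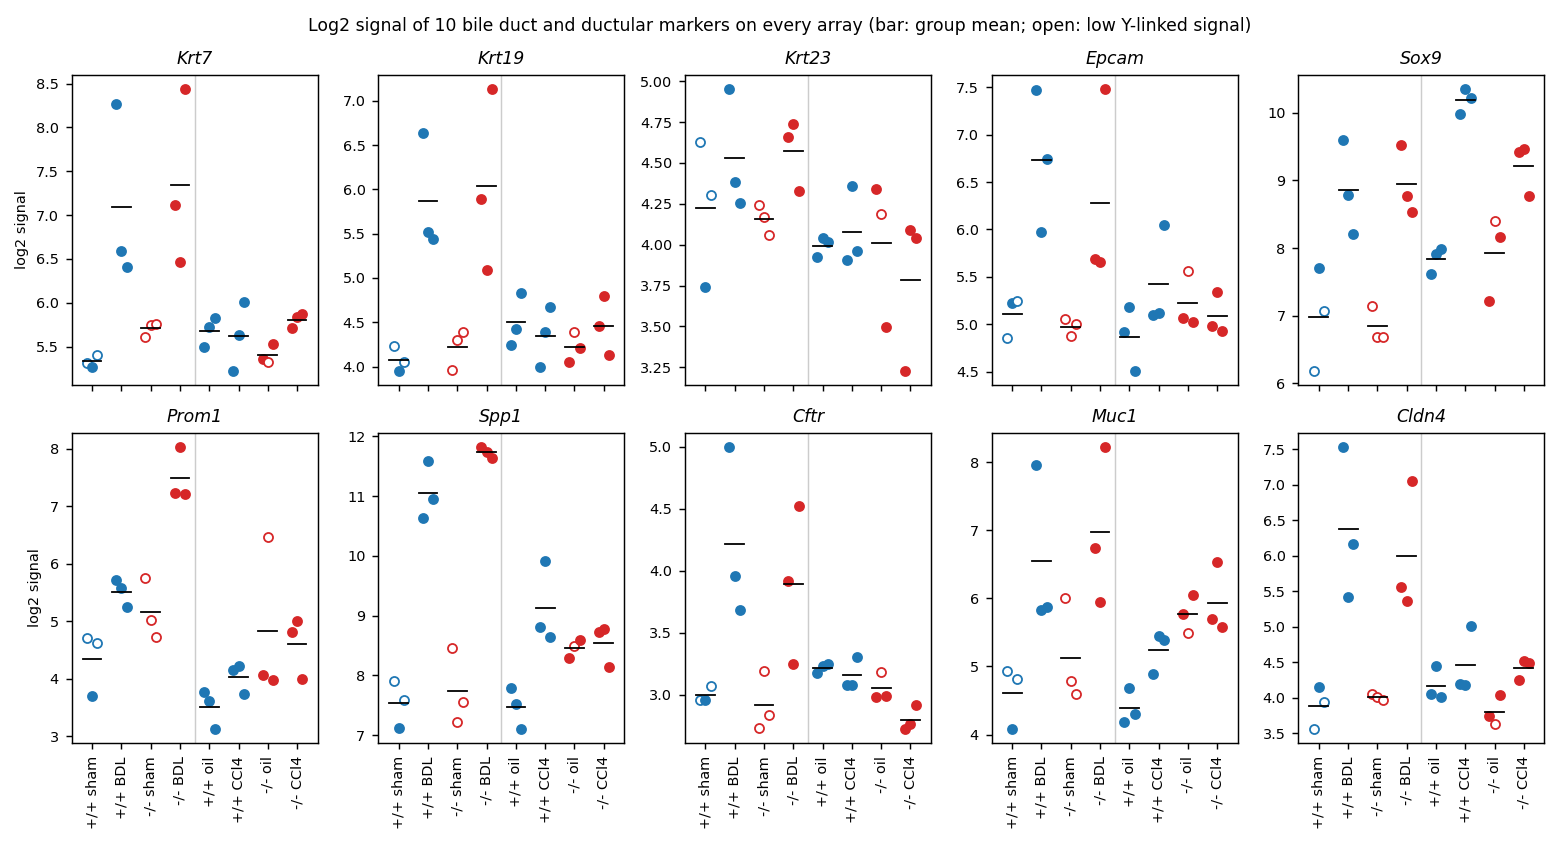
Log2 signal of the 10 markers in all 24 livers (vertical axis, with its own range in each panel), by group along the horizontal axis, with points for single livers and a bar at the group mean of 3. Open points are the 6 livers low in Y-linked transcripts. The ligated livers stood above the sham livers for every marker except Krt23 in N-RAS+/+ and Muc1 in N-RAS-/-, and Sox9 reached its highest group mean, 10.19, in N-RAS+/+ mice given CCl4.

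The keratins KRT7 and KRT19 pair with other keratins to form the filaments of duct cells and are scarcely made by hepatocytes. Krt7 read 5.32, 5.27 and 5.41 in N-RAS+/+ sham livers and 8.27, 6.59 and 6.4 after ligation. The N-RAS-/- livers read 5.62, 5.75 and 5.76 in sham livers and 7.12, 6.46 and 8.44 after ligation. The sham livers lay within a narrow band, every ligated liver stood above it, and 1 ligated liver of each genotype, N04 and N12, stood well above the rest. The difference was 1.76 ± 0.46 (SE; 3.38-fold, adjusted p = 0.0339) in N-RAS+/+ and 1.63 ± 0.46 (3.10-fold, adjusted p = 0.0359) in N-RAS-/-. Krt19 was highest in the same 2 livers. It read 4.23, 3.95 and 4.05 in N-RAS+/+ sham livers against 6.64, 5.51 and 5.44 after ligation, and in N-RAS-/- 3.96, 4.30 and 4.4 against 5.89, 5.09 and 7.14. Groups did not overlap in either genotype, and the differences were 1.79 ± 0.41 (3.46-fold, adjusted p = 0.0154) and 1.82 ± 0.41 (3.53-fold, adjusted p = 0.00997). Krt23, a type I keratin reported in ductular cells of injured mouse liver, behaved differently. In N-RAS+/+ it read 4.63, 3.74 and 4.30 in sham livers and 4.95, 4.39 and 4.26 after ligation, with overlapping groups and a difference of 0.31 (95% interval -0.18 to 0.79, adjusted p = 0.52). In N-RAS-/- it read 4.24, 4.17 and 4.06 against 4.66, 4.74 and 4.33, where the groups did not overlap but the difference of 0.42 ± 0.23 did not pass (adjusted p = 0.283).

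Of the 2 surface proteins, Epcam encodes an adhesion molecule of simple epithelia that hepatocytes of the healthy adult liver lack, and Prom1 encodes prominin-1 (CD133), a membrane protein of protrusions used to sort progenitor cells. Epcam read 4.86, 5.23 and 5.25 in N-RAS+/+ sham livers and 7.47, 5.98 and 6.75 after ligation. Among N-RAS-/- livers it was 5.05, 4.87 and 5.0 in sham livers and 5.68, 5.65 and 7.48 after ligation. Groups were apart in both genotypes. The difference of 1.62 ± 0.42 (3.07-fold) passed in N-RAS+/+ (adjusted p = 0.0321), and that of 1.30 ± 0.42 in N-RAS-/- did not (95% interval 0.39 to 2.21, adjusted p = 0.0665; 0.69 without N12). Prom1 read 4.71, 3.70 and 4.62 against 5.72, 5.57 and 5.24 in N-RAS+/+, and 5.75, 5.02 and 4.72 against 7.22, 8.03 and 7.21 in N-RAS-/-. The 3 ligated N-RAS-/- livers were the highest 3 of the 24 for Prom1. Its difference was 1.17 ± 0.31 (2.24-fold, adjusted p = 0.0364) in N-RAS+/+ and 2.33 ± 0.31 (5.02-fold, adjusted p = 0.00028) in N-RAS-/-. Leaving out the arrays of low Y-linked signal left N02 alone as the N-RAS+/+ sham liver. It had the lowest Prom1 of the 3, so the difference was larger, 1.81 (adjusted p = 0.0365, with N02 assumed to vary like the livers of the other groups).

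Sox9 encodes a transcription factor that is present in duct cells, marks the ductal plate of the embryo and appears in periportal hepatocytes that take on duct features. It read 6.18, 7.71 and 7.07 in N-RAS+/+ sham livers and 9.60, 8.78 and 8.21 after ligation. In N-RAS-/- it read 7.15, 6.68 and 6.69 in sham livers and 9.53, 8.76 and 8.53 after ligation. Ligated and sham livers did not overlap, although the sham livers of N-RAS+/+ spanned more than 1 log2 unit, with N02 the highest. The difference was 1.88 ± 0.39 (3.68-fold, adjusted p = 0.00861) in N-RAS+/+ and 2.10 ± 0.39 (4.29-fold, adjusted p = 0.00287) in N-RAS-/-. Without the arrays of low Y-linked signal it was 1.16 in N-RAS+/+ (adjusted p = 0.387), against N02 alone, the sham liver with the most Sox9. With mean Y-linked signal as a covariate it was 1.21 in N-RAS-/- (adjusted p = 0.428). There every sham liver and no ligated liver was low in that signal, so it could not be separated from ligation.

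Spp1 encodes osteopontin, a secreted phosphoprotein that duct cells release and that binds integrins and CD44; macrophages also make it. It had the largest change of the 10 in both genotypes. It read 7.90, 7.13 and 7.59 in N-RAS+/+ sham livers and 10.63, 11.58 and 10.95 after ligation. The N-RAS-/- values were 8.46, 7.22 and 7.55 in sham livers and 11.83, 11.74 and 11.63 after ligation. Over both genotypes the lowest ligated liver (10.63) stood far above the highest sham liver (8.46). The difference was 3.52 ± 0.30 (11.4-fold, adjusted p = 1.33e-05) in N-RAS+/+ and 3.99 ± 0.30 (15.9-fold, adjusted p = 2.58e-06) in N-RAS-/-. Against N02 alone it was 3.93 in N-RAS+/+ (adjusted p = 0.000789). The mean of 9 macrophage markers was 6.75 to 7.0 in sham livers and 7.87 to 8.39 in ligated livers, and the part of macrophages in the Spp1 signal was not tested.

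At the luminal side of the duct cell, Cftr encodes the chloride and bicarbonate channel that drives fluid secretion, Muc1 a membrane mucin, and Cldn4 a claudin of tight junctions. Cftr read 2.96, 2.96 and 3.08 in N-RAS+/+ sham livers and 5.0, 3.95 and 3.69 after ligation, and in N-RAS-/- 2.74, 3.19 and 2.83 against 3.92, 3.25 and 4.52. Groups did not overlap, by the narrowest margin in N-RAS-/-, where N11 at 3.25 stood beside a sham liver at 3.19. The difference was 1.22 ± 0.32 (2.32-fold, adjusted p = 0.0354) in N-RAS+/+ and 0.98 ± 0.32 in N-RAS-/-, which did not pass (95% interval 0.28 to 1.67, adjusted p = 0.0711). Cftr signal was low, with its mean at percentile 13.9 of all genes. Those of Krt23 (29.1), Cldn4 (36.1) and Krt19 (37.2) were low as well. With a floor under low signals fewer markers were called after ligation, as given below. Muc1 read 4.93, 4.08 and 4.81 against 7.96, 5.83 and 5.88 in N-RAS+/+, and 6.01, 4.79 and 4.59 against 6.73, 5.94 and 8.23 in N-RAS-/-. The groups overlapped in N-RAS-/-, since the sham liver N07 at 6.01 was above the ligated liver N11 at 5.94. Its differences of 1.95 ± 0.60 (95% interval 0.65 to 3.25, adjusted p = 0.0716) and 1.84 ± 0.60 (0.54 to 3.14, adjusted p = 0.069) were larger than those of several markers that passed, but its SE was the largest of the 10 and neither passed. Cldn4 read 3.55, 4.14 and 3.94 against 7.54, 5.42 and 6.17 in N-RAS+/+, and 4.05, 4.02 and 3.96 against 5.55, 5.37 and 7.05 in N-RAS-/-. Every ligated liver was more than 1 log2 unit above every sham liver. The difference was 2.49 ± 0.47 (5.63-fold, adjusted p = 0.00453) in N-RAS+/+ and 1.98 ± 0.47 (3.96-fold, adjusted p = 0.0129) in N-RAS-/-.

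**Figure D2:**
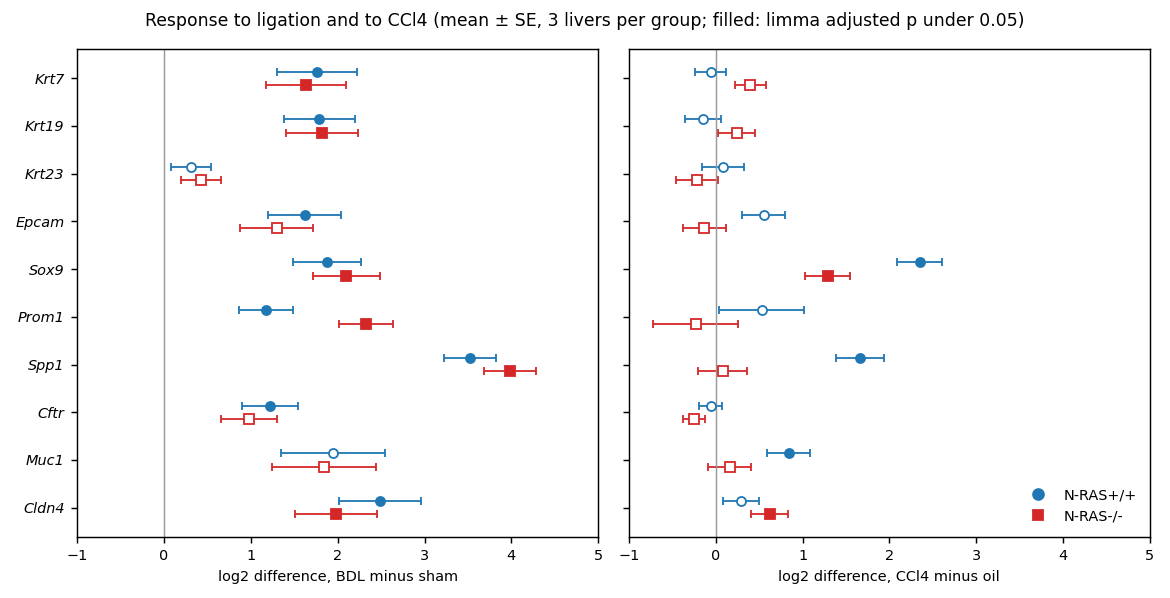
Log2 difference from the own control group (horizontal axis) for each marker (vertical axis) after BDL and after CCl4, in both genotypes, with means and SE from the limma fit; filled points passed at an adjusted p below 0.05. After BDL all 20 differences lay above 0, from 0.31 for Krt23 to 3.99 for Spp1, whereas after CCl4 most lay near 0 and Sox9 led in both genotypes with 2.35 and 1.29.

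The 8 calls in N-RAS+/+ did not all rest equally firmly on the 3 livers of a group. Leaving out 1 liver at a time left between 3 and 9 of the 10 called. Sox9, Spp1 and Cldn4 were called every time. Krt7, Epcam and Prom1 were each lost in 5 of the 12 fits, Cftr in 4 and Krt19 in 2. Without N04 the 3 that held had differences of 1.51 (Sox9, adjusted p = 0.0413), 3.73 (Spp1, adjusted p = 3.59e-05) and 1.91 (Cldn4, adjusted p = 0.014), while Krt7 was at 1.17 (adjusted p = 0.12) and Krt19 at 1.40 (adjusted p = 0.0706). Without a sham liver the count was 5 (N01), 4 (N02) or 3 (N03). With all arrays of low Y-linked signal left out, 1 sham liver remained, 2 markers were called (Prom1 and Spp1) and all 10 differences were positive, from 0.79 to 3.93. In N-RAS-/- the count without 1 liver was 5 to 9. Krt7 was lost in 6 of the 12 fits (without N03, N07, N08, N09, N10 or N12). Krt19, Sox9, Prom1, Spp1 and Cldn4 were called every time, and Epcam, Cftr and Muc1 passed in some fits. Without N12 the count was 5, with Krt7 at 1.08 (adjusted p = 0.129), Krt19 at 1.27 (adjusted p = 0.0252) and Cldn4 at 1.45 (adjusted p = 0.0472). Sox9 was then at 2.31 (adjusted p = 0.00424), Prom1 at 2.47 (adjusted p = 0.000741) and Spp1 at 4.04 (adjusted p = 1.73e-05). The 3 N-RAS-/- sham livers were all of low Y-linked signal, so they could not be left out.

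The ligated livers differed among themselves in a way that most of the markers shared. For Krt7, Krt19, Epcam, Cftr, Muc1 and Cldn4, the 2 highest of the 24 livers were N04 and N12, 1 from each genotype. For Krt7 these stood 2.94 and 2.73 above the sham mean of their genotype, and the other 4 ligated livers 0.75 to 1.41 above it. For Muc1 they stood 3.36 and 3.10 above it, and the others 0.81 to 1.60. The other 4 markers did not follow this order. For Spp1 the responses ran from 3.09 in N04, the lowest, to 4.08 in N10. Prom1 was highest in N11 and N10, Sox9 in N25 and N26 after CCl4, and Krt23 in N04 and N11. Having N04 and N12 as the highest of the 6 ligated livers was seen for 6 of 10 markers, for 13 of 29 other biliary genes (44.8%), for 3 of 8 stellate cell or fibroblast genes (Col1a1, Col1a2 and Col3a1), for 0 of 7 hepatocyte genes, and for 8.52% of all genes. The 6 markers were set apart after their values were seen and this order was not tested.

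**Figure D3:**
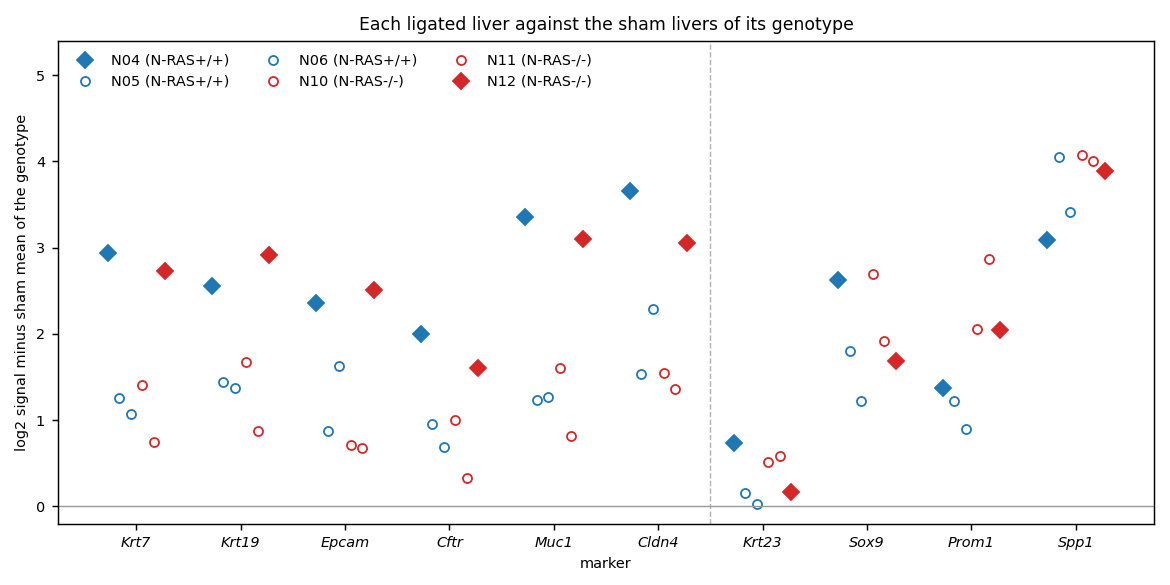
Log2 signal minus the sham mean of the same genotype (vertical axis) in each of the 6 ligated livers, for the 10 markers along the horizontal axis; each point is 1 liver and the filled diamonds are N04 and N12. Left of the dashed line the diamonds are the 2 highest points for each of 6 markers; right of it, N04 was the lowest liver for Spp1, at 3.09.

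Among these 6 markers the 15 pairwise Pearson correlations ran from 0.67 to 0.97 over the 24 livers and from 0.78 to 1.0 over the 6 ligated livers. Between them and Krt23, Sox9, Prom1 or Spp1 the 24 correlations over the ligated livers ran from -0.68 to 0.45. These describe livers that share an experiment and an operation, and they were not tested. Liver N12 also carried the muscle transcripts, and N04 did not (Acta1 was at most 5.10 outside N12).

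Against corn oil, 4 weeks of CCl4 changed fewer of the markers. In N-RAS+/+ 3 of 10 were higher (8.08% of all genes) and 3 of 10 had groups that did not overlap (16.5% of all genes). In N-RAS-/- 2 of 10 were higher (13.6% of all genes), and 3 of 10 stood above oil without overlap (19.5%). Cftr in N-RAS-/- was the 1 marker with all CCl4 livers below the oil livers (16.6% of all genes). No marker was called lower, against 7.16% and 9.19% of all genes. The median difference of the 10 was 0.41 in N-RAS+/+ and 0.12 in N-RAS-/-.

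Sox9 had the largest change. In N-RAS+/+ it read 7.61, 7.91 and 7.98 with oil and 9.99, 10.36 and 10.22 with CCl4. With N-RAS absent it read 7.22, 8.39 and 8.16 with oil and 9.42, 9.46 and 8.76 with CCl4. The groups were apart in both genotypes, and the 3 N-RAS+/+ CCl4 livers had the highest Sox9 signal of all 24. The difference was 2.35 ± 0.26 (5.10-fold, adjusted p = 3.25e-05) in N-RAS+/+ and 1.29 ± 0.26 (2.44-fold, adjusted p = 0.00231) in N-RAS-/-. Without N28, the oil liver of low Y-linked signal, the N-RAS-/- difference was 1.52 (adjusted p = 0.000985).

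Spp1 read 7.78, 7.52 and 7.10 with oil and 8.81, 9.91 and 8.65 with CCl4 in N-RAS+/+, a difference of 1.66 ± 0.28 (3.15-fold, adjusted p = 0.00115). In N-RAS-/- it read 8.29, 8.49 and 8.59 with oil and 8.72, 8.77 and 8.14 with CCl4. These overlapped, and the difference was 0.08 (95% interval -0.52 to 0.69, adjusted p = 0.872). Muc1 read 4.19, 4.69 and 4.31 against 4.89, 5.44 and 5.38 in N-RAS+/+, where it was higher after CCl4 by 0.84 ± 0.25 (1.80-fold, adjusted p = 0.0297), and 5.77, 5.49 and 6.05 against 5.69, 6.53 and 5.58 in N-RAS-/-. There the groups overlapped, with a difference of 0.16 (adjusted p = 0.701). For both genes the oil livers of N-RAS-/- already stood above every oil liver of N-RAS+/+. The call of Muc1 was lost without N21, N23, N25 or N26. Cldn4 was higher in N-RAS-/- by 0.62 ± 0.21 (1.54-fold, adjusted p = 0.0477), from 3.74, 3.63 and 4.03 to 4.25, 4.52 and 4.49, and in N-RAS+/+ its difference of 0.29 did not pass (adjusted p = 0.436). This call sat at the threshold and was lost in 7 of the 12 fits without 1 liver. Krt7 and Krt19, the keratins that rose after ligation, read 5.22 to 6.01 and 3.99 to 4.79 in the 6 CCl4 livers, and Krt7 in N-RAS-/- differed by 0.40 from oil (adjusted p = 0.135). Macrophage markers averaged 6.49 to 7.13 with oil and 7.69 to 8.42 with CCl4, and their part in the Spp1 signal was not tested.

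The 2 responses were compared directly, as the BDL minus sham difference less the CCl4 minus oil difference, in a fit of all 24 arrays. In N-RAS+/+ 3 of the 10 markers rose more after BDL (1.56% of all genes): Krt19 by 1.94 ± 0.50 (adjusted p = 0.0323), Spp1 by 1.86 ± 0.45 (adjusted p = 0.0222) and Cldn4 by 2.20 ± 0.56 (adjusted p = 0.0295). Krt7 and Cftr, at 1.82 (adjusted p = 0.0718) and 1.28 (adjusted p = 0.0632), did not pass. Sox9 stood alone in the other direction, at -0.47 (95% interval -1.53 to 0.58, adjusted p = 0.751), so its responses to the 2 injuries were not told apart. In N-RAS-/- 4 of 10 rose more after BDL (4.74% of all genes): Krt19 by 1.58 ± 0.50 (adjusted p = 0.048), Prom1 by 2.56 ± 0.65 (adjusted p = 0.0134), Spp1 by 3.91 ± 0.45 (adjusted p = 5.01e-06) and Cftr by 1.23 ± 0.37 (adjusted p = 0.0371). Of the calls in N-RAS-/-, Prom1 and Spp1 were lost in 0 of the 24 fits without 1 liver, Krt19 in 18 and Cftr in 9, and in N-RAS+/+ Krt19 was lost in 8, Cldn4 in 7 and Spp1 in 6. The Prom1 difference in N-RAS-/- ran from 1.74 to 2.99 over these fits. Its oil livers read 4.06, 6.47 (N28, of low Y-linked signal) and 3.98, and all its sham livers were of low Y-linked signal. Without N12 the differences in N-RAS-/- were 1.03 for Krt19 (adjusted p = 0.137) and 0.92 for Cftr (adjusted p = 0.116), and without N04 those in N-RAS+/+ were 1.55 for Krt19 (adjusted p = 0.0966) and 1.62 for Cldn4 (adjusted p = 0.0735). Without the arrays of low Y-linked signal Spp1 was the 1 marker called in N-RAS+/+. No marker rose more after CCl4 in either genotype (1.4% and 4.4% of all genes did). The experiments had their own procedures and controls, so the comparison is of responses and not of livers.

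**Figure D4:**
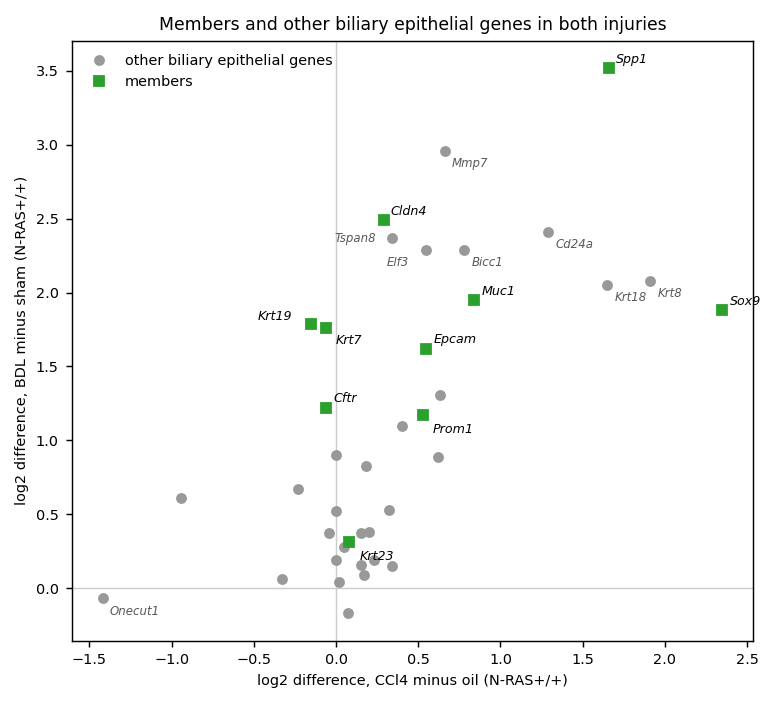
Difference after CCl4 from oil (horizontal axis) against difference after BDL from sham (vertical axis) in N-RAS+/+ livers, both log2, for the 10 markers and 29 other biliary genes, each point 1 gene. Most markers lay far above the diagonal, with Cldn4 at 0.29 and 2.49 and Spp1 at 1.66 and 3.52, and Sox9 lay below it at 2.35 and 1.88.

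Between genotypes, 1 of the 10 markers differed after ligation (0.525% of all genes were higher in N-RAS-/- and 0.18% lower). Prom1 read 5.72, 5.57 and 5.24 in N-RAS+/+ and 7.22, 8.03 and 7.21 in N-RAS-/- ligated livers. The lowest N-RAS-/- liver was above the highest N-RAS+/+ liver by more than 1 log2 unit, and the difference was 1.98 ± 0.31 (3.94-fold, adjusted p = 0.00864). None of these 6 livers had low Y-linked signal, and among the fits without 1 liver the call was lost only without N06 (adjusted p = 0.0503). Without N12 the difference was 2.12 (adjusted p = 0.015). Prom1 was also above N-RAS+/+ in the sham livers without overlap, as were 7.36% of all genes, by 0.82 ± 0.31 (adjusted p = 0.505), where the 3 N-RAS-/- livers and 2 of the 3 N-RAS+/+ livers were of low Y-linked signal. In oil livers it was likewise above N-RAS+/+ without overlap (9.52% of all genes), by 1.33 ± 0.49 (adjusted p = 0.281). The N-RAS-/- oil livers spanned 3.98 to 6.47, highest in N28 of low Y-linked signal, and without 1 array the difference was 0.51 to 1.76. The change of the Prom1 genotype difference from sham to BDL was 1.16 ± 0.44 and did not pass (limma, adjusted p = 0.692), and 0% of all genes passed in that test. Spp1 in ligated livers was higher in N-RAS-/- without overlap, by 0.68 ± 0.30 (adjusted p = 0.392), so that 2 of 10 markers separated in this direction where 8.32% of all genes did. Krt7, Krt19, Epcam and Sox9 differed between genotypes by 0.25, 0.17, -0.46 and 0.08 (adjusted p of 0.741 to 0.962). The signs for Krt7 and Krt19 rested on N12: without it they were at -0.30 and -0.37, and Epcam at -1.06 (adjusted p = 0.162), whereas without N04 Krt7 was at 0.84 (adjusted p = 0.486).

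After CCl4, Sox9 was the 1 marker called: it was lower in N-RAS-/-, by 0.97 ± 0.26 on the log2 scale (a 1.96-fold lower signal, adjusted p = 0.0229; 5.56% of all genes were lower and 8.72% higher). All 3 N-RAS-/- livers lay below all 3 N-RAS+/+ livers, as for 16% of all genes. The call was lost without N25, N26 or N32. The change of the genotype difference with CCl4, -1.06 ± 0.37 for Sox9, did not pass (adjusted p = 0.152). For Spp1 the same change was -1.57 ± 0.40 and narrowly missed (adjusted p = 0.055); 2.36% of all genes passed. In both arms of this experiment Muc1 stood higher in N-RAS-/- without overlap, which 9.52% of all genes did with oil and 16.7% with CCl4. In oil livers the difference was 1.38 ± 0.25 (2.6-fold, adjusted p = 0.0149; 0.534% of all genes were higher and 0.312% lower), 1.52 without N28 (adjusted p = 0.016), and in CCl4 livers it was 0.70 ± 0.25 (adjusted p = 0.0715). The oil call was lost without N21, N23 or N29. Spp1 in oil livers was 0.99 ± 0.28 higher in N-RAS-/- without overlap and did not pass (adjusted p = 0.138). Prom1, given above, also separated there and did not pass. Cftr in CCl4 livers was 0.36 lower without overlap (adjusted p = 0.0918). In sham livers no marker was called, with 0.246% of all genes higher and 0.18% lower, and Muc1 differed by 0.53 (adjusted p = 0.901).

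**Figure D5:**
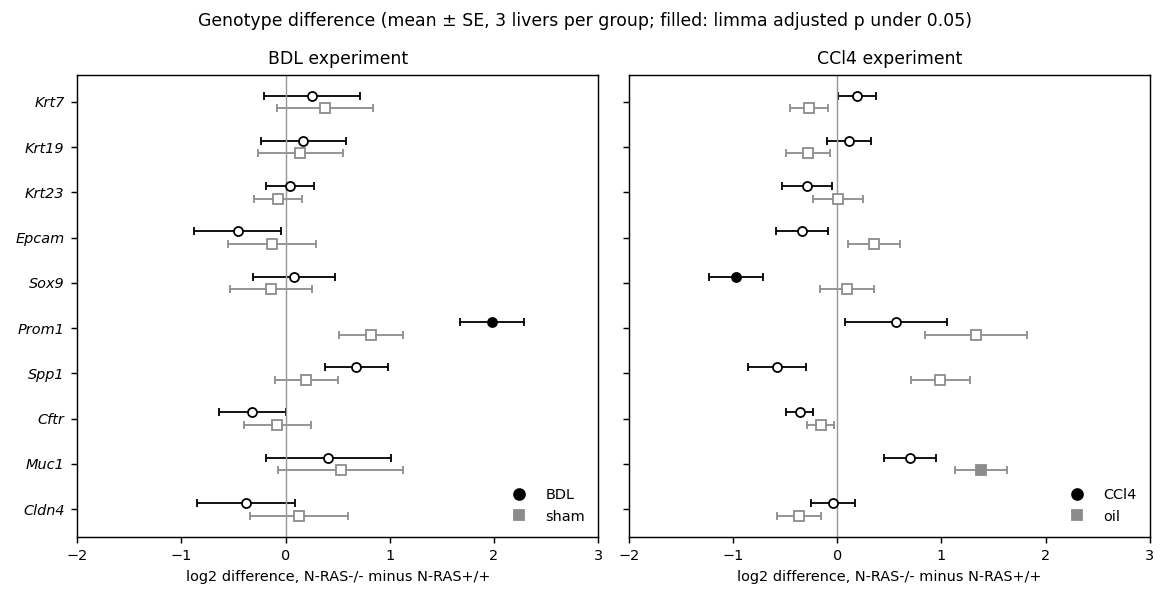
Log2 difference of N-RAS-/- from N-RAS+/+ (horizontal axis) for each marker (vertical axis), with means and SE from the limma fit, in sham and BDL livers and in oil and CCl4 livers; filled points passed at an adjusted p below 0.05. The filled points are Prom1 after BDL at 1.98, Muc1 with oil at 1.38 and Sox9 after CCl4 at -0.97.

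Of 29 other genes of the duct epithelium, 11 were higher after ligation in N-RAS+/+ (4.51% of all genes; median 0.53), 0 were lower and 18 were not called. In N-RAS-/- 13 were higher (7.18% of all genes; median 0.73) and 16 were not called. Those called included Krt8 and Krt18, the keratin pair of all simple epithelia and of hepatocytes as well, at 2.08 ± 0.18 (adjusted p = 1.1e-05) and 2.05 ± 0.19 (adjusted p = 1.9e-05) in N-RAS+/+, Bicc1, an RNA-binding protein, at 2.29 ± 0.24 (adjusted p = 5.05e-05), and Elf3, an epithelial ETS factor, at 2.29 ± 0.33 (adjusted p = 0.000676). Ehf, a related factor, was at 0.83 (adjusted p = 0.202) in N-RAS+/+ and at 2.22 (adjusted p = 0.000916) in N-RAS-/-, and its genotype difference after BDL did not pass (adjusted p = 0.276). After CCl4 4 were higher in N-RAS+/+ (8.08% of all genes) and 5 in N-RAS-/- (13.6%), with Krt8 at 1.91 and 2.33. The claudin gene Cldn3 was lower in N-RAS+/+ (-0.94, adjusted p = 0.0277) and Onecut1, a transcription factor of the duct and hepatocyte lineages, in N-RAS-/- (-1.45, adjusted p = 0.0426). Each was the 1 gene of the 29 called lower, where 7.16% and 9.19% of all genes were lower. Between genotypes after CCl4 5 were higher in N-RAS-/- (8.72% of all genes), and Aqp1, a water channel of duct cells, differed by 0.63 ± 0.17 (adjusted p = 0.0194). Sox9 moved the other way in the same comparison.

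The Notch pathway directs duct fate, with the ligand Jag1 acting on Notch2 and, through Rbpj, on Sox9 and Hes1. In N-RAS+/+ none of 12 Notch genes was called after ligation at adjusted p below 0.05, while 2 were higher and 1 was lower at an unadjusted p below 0.05, and Jag1 differed by 0.78 ± 0.25 (adjusted p = 0.0779). In N-RAS-/- 3 of 12 were higher (7.18% of all genes), among them Jag1 at 1.07 ± 0.25 (adjusted p = 0.012). After CCl4 Jag1 rose by 1.52 ± 0.18 in N-RAS+/+ (adjusted p = 4.54e-05) and 0.64 ± 0.18 in N-RAS-/- (adjusted p = 0.0167). It was the 1 Notch gene called between genotypes there, lower in N-RAS-/- by 0.96 ± 0.18 (adjusted p = 0.00254), where 5.56% of all genes were lower. The other 11 were not called, and the median of the 12 was -0.01. Sox9 was lower there too, and a link between the 2 genes was not tested. In the Hippo pathway, whose effectors YAP and TAZ are active in duct cells, 6 of 13 genes were higher in N-RAS+/+ after ligation (4.51% of all genes). In N-RAS-/- 4 were higher (7.18%). The LIM protein gene Ajuba in N-RAS+/+ was at 2.23 ± 0.21 (adjusted p = 2.34e-05) and the YAP target Ccn2 at 1.92 ± 0.39 (adjusted p = 0.00752). After CCl4 5 and 6 of 13 were higher (8.08% and 13.6% of all genes).

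Of 13 genes of signals known to drive ductular reactions, 2 were higher after ligation, the same 2 in both genotypes (4.51% and 7.18% of all genes). Tnfrsf12a, the receptor of TWEAK, was at 2.87 ± 0.20 (adjusted p = 1.67e-06) and 2.55 ± 0.20 (adjusted p = 3.11e-06). The growth factor gene Tgfb2 was at 2.28 ± 0.31 (adjusted p = 0.000442) and 2.32 ± 0.31 (adjusted p = 0.000265). Both were higher after CCl4 too, Tnfrsf12a by 3.19 and 3.44 and Tgfb2 by 1.46 and 0.68. The Hedgehog receptor gene Ptch1 was lower in both genotypes (-0.74 and -0.92) and Met, the receptor of hepatocyte growth factor, in N-RAS-/- (-0.85). That made 1 and 2 of the 13 lower after CCl4, where 7.16% and 9.19% of all genes were. Of 9 genes of osteopontin receptors, 3 were higher after ligation in N-RAS+/+ (4.51% of all genes) and 5 in N-RAS-/- (7.18%). Cd44 led them, at 1.89 ± 0.16 (adjusted p = 1.36e-05) and 1.95 ± 0.16 (adjusted p = 6e-06). After CCl4 5 of 9 were higher in each genotype (8.08% and 13.6% of all genes). The integrin gene Itga8 was lower in N-RAS-/- (-0.48, adjusted p = 0.0351), 1 of the 9 where 9.19% of all genes were lower. Cd44 rose in N-RAS-/- livers after CCl4 by 1.53 (adjusted p = 0.000673), in the comparison where Spp1 itself differed by 0.08.

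Over the 24 livers, the genes outside the 10 whose pattern was most like the mean of the standardised markers were Fermt1, an epithelial kindlin (Pearson r = 0.947), Cd24a, a surface glycoprotein of duct progenitors (0.947), Ppic (0.933), Cdh6 (0.930), Col1a2 (0.929), Gabrp (0.929), Tspan8 (0.928), Itga2 (0.927), Col3a1 (0.926) and Gm609 (0.916). Col1a2 and Col3a1 encode fibrillar collagens of matrix-forming cells. The nearest genes of the single markers differed. Krt7 and Krt19 shared Wfdc18 (0.924 and 0.918) and Cdh6 (0.910 and 0.905), and Cftr and Cldn4 had Cdh6 among their nearest 3 as well (0.895 and 0.914). Muc1 was nearest to Timp2 (0.913) and then Mmp7 (0.901), and Epcam to Ankrd1 (0.905). For Sox9 the nearest genes were Thbs1 (0.934), Lsm12 (0.927) and Creb3l2 (0.906). Spp1 was nearest to Mfge8 (0.974), Cybb (0.958), a subunit of the phagocyte oxidase, and Clu (0.952). Prom1 was nearest to Dmpk (0.880), and Krt23 to Ltbp2 (0.831). These values describe 24 livers that share groups, experiments and injuries.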

How the data were processed

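RNA from 24 whole mouse livers, 8 groups of 3, was hybridised to Affymetrix arrays, with 1 array per mouse. The authors deposited normalized log2 signals of 22206 probe sets per array; the normalization method is not given in the sources used here, and MAS5 is listed in the processing notes of the submitters, without a role or a version. Array medians ran from 5.55 to 5.70, and 2 arrays of a group correlated at r of at least 0.980. The label field names biotin whereas the protocol describes Cy3 labelling. The authors also deposited linear group mean intensities, used to check that the log2 values were the same data, and ratios and p-values of their own comparisons, which were not used. The number of arrays limits the precision, and depth does not apply.

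Of the probe sets 21367 carried 1 symbol, 836 several and 3 none; 883 symbols were updated, and 143 of the 21144 genes had several probe sets, of which that with the highest mean was kept. Each group of a fit had 1 coefficient in limma 3.58.1 (R 4.3.3): the 12 arrays of an experiment for comparisons within it, all 24 for the difference of the responses. Calls were at an adjusted p (Benjamini-Hochberg over all 21144 genes) below 0.05. Differences carry SEs of the fit, and the p-values measure the spread between the mice as sampled. An exact test of 3 against 3 mice cannot go below p = 0.1. The fits were tested on simulated data first. Alternatives were quantile normalization, median centring, a floor of 32 on the linear scale, a filter at the 40th percentile, means over probe sets, trended robust variances, array weights, other sets of arrays, Y-linked signal left out or as a covariate, the methods' t-test, and leaving out each array.

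The 10 genes, the gene lists and the tests were chosen with earlier results of these data known. Named genes were the 10 members; of each other list, up to 4 genes with the smallest adjusted p after BDL in N-RAS+/+ and up to 2 with the smallest in each genotype comparison after injury; and, by Pearson r over 24 arrays, the 3 nearest genes of each member and the 10 nearest to their mean. List genes called lower after CCl4 are named too, chosen after their values were seen. The motifs and the promoters printed, from RefSeq (GRCm38.p6), were chosen after values had been seen. Figures and tables used python 3.11.15, pandas 2.3.3 and matplotlib 3.10.9.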

Additional observations from a re-analysis of the deposited data

How the results depend on the processing

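Counts of the 10 markers called depended on the settings below; the cause was not tested. With genes under the 40th percentile left out, which removes Krt19, Krt23, Cftr and Cldn4 from the test, the count was 5 after BDL in N-RAS+/+ (8 as reported), 1 after CCl4 in N-RAS-/- (2), 1 for the change of genotype difference with CCl4 (0), 1 for the response difference in N-RAS+/+ (3) and 2 in N-RAS-/- (4). With a floor of 32 it was 1 after BDL in N-RAS+/+, 3 in N-RAS-/- (6), 1 after CCl4 in N-RAS-/-, 0 between genotypes after CCl4 (1) and in oil livers (1), and 0 and 2 for the response differences. Trended robust variances gave 5 after BDL in N-RAS+/+. Without arrays of low Y-linked signal, counts were 2 after BDL in N-RAS+/+, 1 after CCl4 in N-RAS-/- and 1 for the response difference in N-RAS+/+. With Y-linked signal as a covariate they were 2 and 2 after BDL in the 2 genotypes and 1 after CCl4 in N-RAS-/-. The adjusted t-test of the methods gave 0 and 1 after BDL, 1 and 0 after CCl4, and 0 between genotypes after BDL, after CCl4 and in oil livers. Unadjusted it gave 4 after CCl4 in N-RAS-/-, 2 between genotypes after CCl4, 1 in sham livers (0) and 2 in oil livers. Median centring gave 1 after CCl4 in N-RAS-/-. A fit of all 24 arrays gave 1 there, and 0 between genotypes after CCl4 and in oil livers. Array weights gave 2 between genotypes after CCl4 and 5 for the response difference in N-RAS+/+.

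Leaving out 1 array moved the counts over these ranges: 3 to 9 and 5 to 9 after BDL in N-RAS+/+ and N-RAS-/-, 2 to 3 and 1 to 2 after CCl4, 0 to 1 between genotypes after BDL (0 without N06) and after CCl4 (0 without N25 or N26), 0 to 2 in oil livers, 0 to 0 in sham livers and for the change with BDL, 0 to 1 for the change with CCl4, and 0 to 5 and 2 to 5 for the response differences.

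Over 72 differences of single markers, which include those given in the text, 1885 refits were made, of which 1665 kept direction and side of the threshold, 168 fell below it, 37 passed it and 15 changed sign. None of those 15 had been called. Other differences were not counted, and among them Cftr and Cldn4 (without N04) and Muc1 (without N12) also changed sign between genotypes after BDL. After CCl4 in N-RAS-/-, Spp1 was -0.01 after quantile normalization and -0.03 to 0.29 without 1 array, Muc1 -0.14 to 0.34, and Prom1 0.58 without low Y-linked arrays, 0.34 with the covariate and -0.66 to 0.58 without 1 array. The change of the Prom1 genotype difference with CCl4 was 0.05 without low Y-linked arrays and -1.2 to 0.05 without 1 array. Between genotypes after BDL, leaving out 1 array gave -0.30 to 0.84 for Krt7, -0.37 to 0.65 for Krt19 and -0.25 to 0.45 for Sox9. No paired analysis was possible because the groups share no replicate numbers. Leaving out arrays of low Y-linked signal gave no value for N-RAS-/- sham livers, all 3 of which are such arrays.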

Other observations

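Some pathway genes differed between genotypes after CCl4, as did 1 of the 10 markers. In N-RAS-/- livers Met, the receptor of hepatocyte growth factor, was lower by 0.80 ± 0.19 (limma, adjusted p = 0.0111), Itgav, an osteopontin receptor subunit, was lower by 0.66 ± 0.14 (adjusted p = 0.00647) and Wwtr1, which encodes TAZ, was lower by 0.46 ± 0.13 (adjusted p = 0.0289). In the same livers Amotl2, a regulator of YAP, was higher by 0.79 ± 0.14 (adjusted p = 0.00246) and Itga9, another osteopontin receptor subunit, was higher by 0.81 ± 0.22 (adjusted p = 0.024). Of 13 Hippo genes 3 were higher (Amotl2, Lats2 and the YAP target Ccn2) and 1 was lower. Of 9 osteopontin receptors 2 were higher and 1 was lower, and of 13 genes of ductular signals 0 were higher and 1 was lower. Over all genes 8.72% were higher and 5.56% lower in this comparison. After BDL none of the genes of these lists, or of the Notch list, was called between genotypes at an adjusted p below 0.05. At an unadjusted p below 0.05, 1 Hippo gene was higher and 1 was lower, and 1 osteopontin receptor was higher. Of 13 genes of ductular signals, the list of Met, 1 was lower, and of 12 Notch genes 3 were higher and 0 lower.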
